A study of Mus musculus with 6 samples.

Results

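Ionotropic and metabotropic glutamate receptor genes, with the genes of their auxiliary subunits, were followed in total RNA of the mouse hippocampus. The rule took every row of the gene table named Gria, Grik, Grid or Grm with a digit, Grin with a digit, or Cacng with a digit, together with Cnih2, Cnih3, Neto1, Neto2, Shisa9 and Gsg1l. It found 37 genes among the 15616 distinct names of the table. Grin3b, Grm6 and Cacng1 were not among the rows and are not analysed here, and Grid2ip, a binding protein of the delta receptor whose name only starts like that of a member, was left out, the rule being read as a whole gene name. The study compared 3 libraries labelled wild type (WT) with 3 labelled APP/PS1, with all mice aged 6 months. The APP/PS1 label stands for mice that express the APP695swe and PS1-dE9 mutations, a model of amyloid deposition. The promoter of these transgenes, the strain, the sex and the number of animals behind a library are not given in the sources used here, so a p-value speaks to the spread among 6 libraries, and that spread may be technical.

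Glutamate is the main excitatory transmitter of the hippocampus. AMPA receptors carry most of the fast current, NMDA receptors admit calcium and trigger long-term plasticity, kainate receptors modulate release and mossy fibre synapses, and delta receptors act as synapse organisers that bind cerebellins. Metabotropic receptors signal through G proteins: group I couples to phospholipase C, while groups II and III lower cyclic AMP and mostly restrain transmitter release. Auxiliary subunits are membrane proteins that travel with AMPA or kainate receptors and set their trafficking and gating, among them the transmembrane AMPA receptor regulatory proteins (TARPs, of the Cacng family), the cornichons (Cnih2, Cnih3), Shisa9, Gsg1l and the Neto proteins.

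The labels were checked first. App, the amyloid precursor protein gene, stood at 69.8, 68.5 and 145.6 FPKM for WT replicates 1 to 3 and at 153.1, 71.0 and 166.2 FPKM for APP/PS1 replicates 1 to 3. It thus went against the label of WT replicate 3 and APP/PS1 replicate 2, as did Prnp, and for each gene an exact permutation test (two-sided) had p = 0.2, where 3 against 3 cannot go below 0.1. Groups are named by label alone, and counts are also given without these 2 libraries. FPKM is a value per transcript length and library size, and the depth behind it is unknown. Its sum per library lay between 182355 and 185217, and the mitochondrially encoded share was 8.87% to 9.31% in the WT-labelled and 9.70% to 11.3% in the APP/PS1-labelled libraries, whose part in the results was not tested beyond a scaling to non-mitochondrial FPKM. All 5 CA1, all 5 CA3 and all 6 dentate granule neuron markers were listed. So were 4 of 5 thalamus and all 6 choroid plexus markers, so being listed does not single out the labelled tissue.

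AMPA receptor genes had the highest summed level of the 10 classes. The 4 Gria genes summed to 239.2 ± 12.9 FPKM (SD, n = 6 libraries), which was 25.1% of the 953.4 ± 27.5 FPKM of all members. The 4 further AMPA auxiliary genes followed with 173.4 ± 11.1, the 6 NMDA genes with 163.8 ± 4.22 and the 7 Cacng genes with 140.8 ± 5.35 FPKM. Kainate receptor genes summed to 67.0 ± 2.29, the Neto genes to 44.8 ± 1.61, group II metabotropic receptors to 37.1 ± 2.51 and group III to 21.6 ± 1.67 FPKM. Together the 13 auxiliary genes reached 359.1 FPKM against 485.2 FPKM for the 17 ionotropic subunits and 109.1 FPKM for the 7 metabotropic receptors. In every library the AMPA sum exceeded that of each other class. The NMDA and the further AMPA auxiliary sums were not separated by their ranges over libraries (159.7 to 170.9 and 158.8 to 188.0 FPKM).

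**Figure D1:**
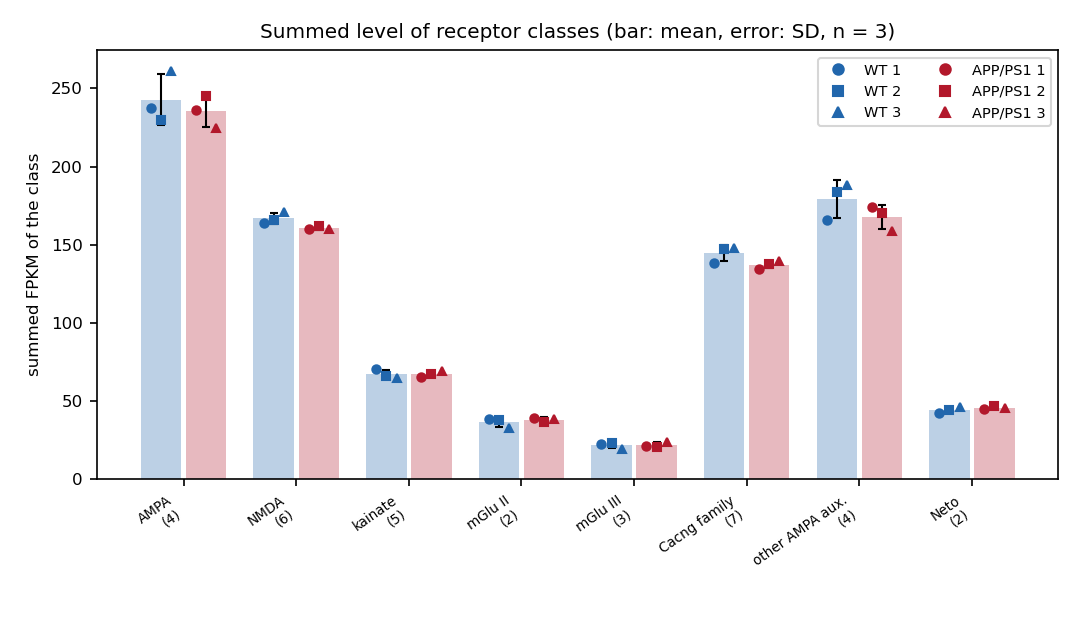
Summed FPKM of 8 receptor or auxiliary classes, with the number of genes in brackets, for the 3 WT-labelled (blue) and 3 APP/PS1-labelled (red) libraries. Bars are means, error bars SD (n = 3) and symbols single libraries. Of these, the NMDA class is the one whose libraries do not overlap between labels, 163.9 to 170.9 against 159.7 to 162.2 FPKM. Among all single genes tested, 11.9% do not overlap.

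Single genes spanned from 1.16 ± 0.334 FPKM (Cacng6) to 154.8 ± 10.98 FPKM (Gria1), and 23 of the 37 lay above 10 FPKM. The 5 highest genes, Gria1, Cnih2, Grin2b, Cacng8 and Gria2, held 50.3% of the summed member FPKM. Of 36 neighbouring pairs in the order of mean levels, 29 overlapped in their ranges over the 6 libraries, so most neighbours did not differ beyond their spread. Separated neighbours were Cnih2 over Grin2b, Grin2a over Cacng7, Grin1 over Grm3, Grm3 over Gria3, Grm7 over Grid1, Grin3a over Grm4 and Grin2d over Grm8.

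**Figure D2:**
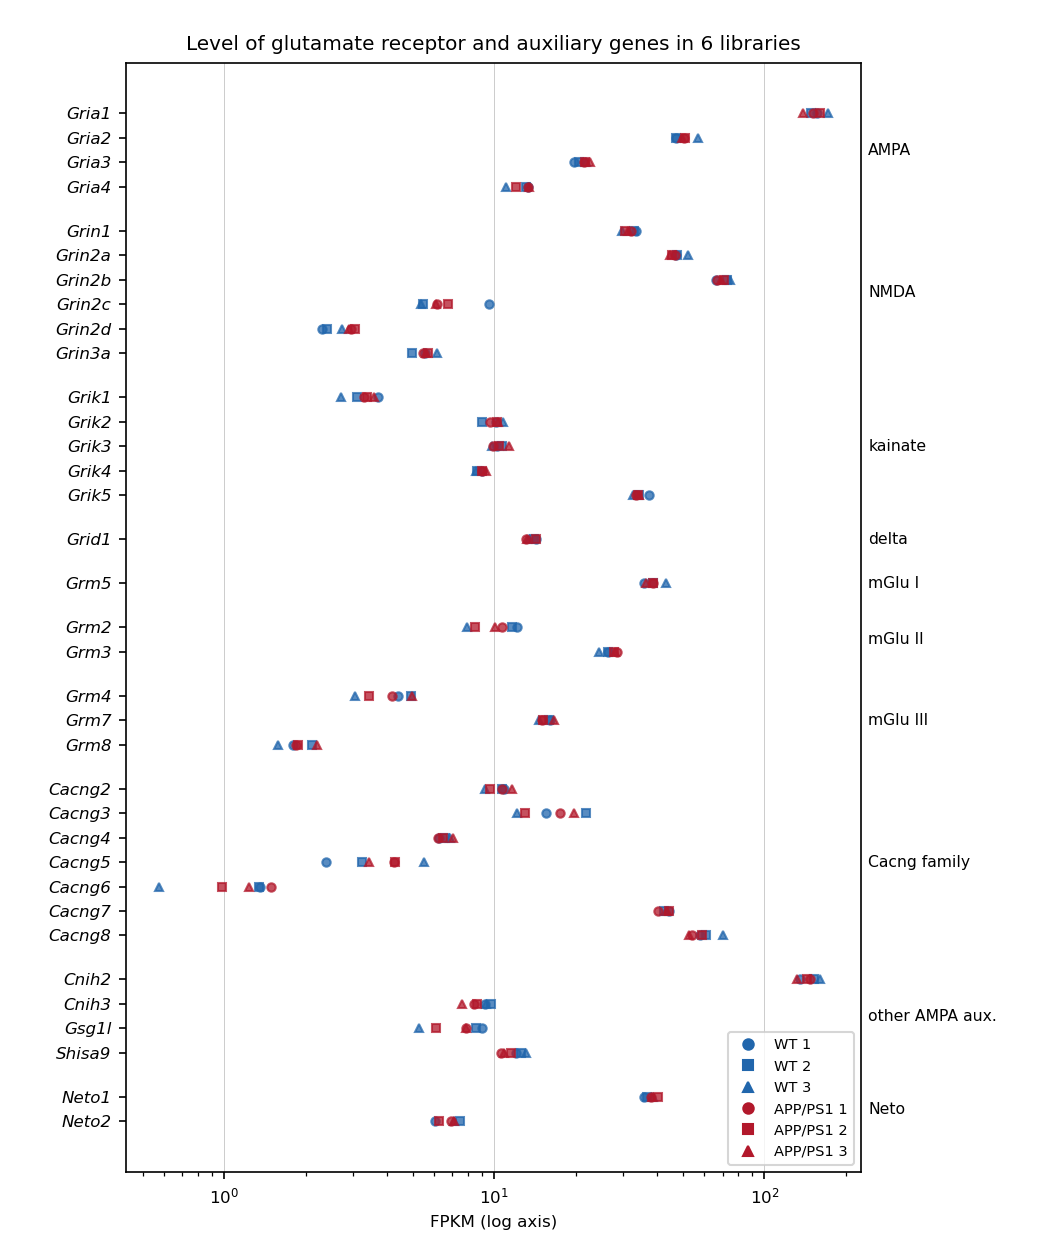
FPKM of member genes on a log axis, grouped by class, with 1 symbol per library (blue WT-labelled, red APP/PS1-labelled). For most genes the 6 libraries lie close together, while Cacng3, Cacng5 and Cacng6 are spread more widely.

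Among AMPA subunits Gria1 was the most abundant, at 157.2, 149.3 and 171.4 FPKM under the WT label (replicates 1 to 3) and 151.0, 160.8 and 139.3 FPKM under the APP/PS1 label. It made up 64.7% ± 1.55 (SD, n = 6) of the class, against 21.0% ± 0.858 for Gria2, whose edited subunit keeps the channel nearly closed to calcium. Gria2 stood at 46.9, 47.1 and 57.0 against 50.4, 50.8 and 49.4 FPKM, highest in WT replicate 3. Gria3 (21.3 ± 0.982 FPKM) and Gria4 (12.7 ± 0.977 FPKM) held 8.94% and 5.35%. The ratio of Gria1 to Gria2 lay between 2.82 and 3.35 in the 6 libraries and overlapped between labels. Gene values do not separate flip and flop or edited and unedited forms.

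In the NMDA class Grin2b led with 66.0, 72.9 and 74.7 against 66.5, 70.8 and 69.2 FPKM between labels, followed by Grin2a with 47.2, 47.3 and 52.2 against 46.7, 45.5 and 44.9 FPKM. Grin1, the obligatory subunit that binds glycine, had 31.6 ± 1.38 FPKM, which was 0.220 to 0.267 of the summed Grin2 genes in each library. Grin2a to Grin2b, the ratio that rises in forebrain after birth, was 0.715, 0.648 and 0.699 against 0.702, 0.643 and 0.648, with overlapping labels. Grin2c stood apart in a single library, at 9.54, 5.46 and 5.35 against 6.15, 6.75 and 6.10 FPKM, highest in WT replicate 1. Grin3a had 5.56 ± 0.370 and Grin2d 2.72 ± 0.307 FPKM.

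Kainate receptor RNA was mostly Grik5 (51.3% of the class, 37.3, 34.3 and 32.7 against 33.3, 34.1 and 34.4 FPKM between labels), a high-affinity subunit that needs a partner from Grik1 to Grik3 to form a channel. Grik3, Grik2 and Grik4 lay close together at 10.4 ± 0.557, 10.02 ± 0.614 and 8.92 ± 0.280 FPKM, and Grik1 at 3.30 ± 0.367 FPKM. Of the delta receptors Grid1 had 14.2, 14.0 and 13.5 against 13.1, 14.3 and 13.2 FPKM between labels, with overlap.

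For the metabotropic receptors Grm5 had 35.8, 38.7 and 43.4 against 38.6, 38.6 and 36.6 FPKM between labels, highest in WT replicate 3. Grm3, a group II receptor found in astrocytes as well as neurons, had 26.9 ± 1.52 and Grm2, a presynaptic receptor, 10.2 ± 1.67 FPKM. Grm7, the presynaptic group III receptor of active zones, had 16.0, 15.9 and 14.6 against 15.1, 15.1 and 16.6 FPKM, with overlap. Grm4 had 4.16 ± 0.779 and Grm8 1.90 ± 0.222 FPKM.

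Among auxiliary genes Cnih2, a cornichon that slows AMPA receptor closing, reached 135.3, 153.2 and 160.3 FPKM under the WT label (replicates 1 to 3) and 147.3, 143.7 and 132.4 FPKM under the APP/PS1 label, a level next to that of Gria1. The TARP gene Cacng8, known for its hippocampal expression, had 57.7, 60.8 and 70.4 against 54.0, 59.0 and 52.6 FPKM. Cacng7 had 43.1 ± 1.45, Cacng3 16.6 ± 3.80, Cacng2 (stargazin) 10.5 ± 0.868, Cacng4 6.56 ± 0.336 and Cacng5 3.85 ± 1.06 FPKM, while Cacng6, a calcium channel subunit and not a TARP, was lowest. Shisa9, which speeds desensitisation, had 11.8 ± 0.987, Cnih3 8.82 ± 0.754 and Gsg1l 7.43 ± 1.46 FPKM. For the kainate partners, Neto1 had 38.0 ± 1.52 and Neto2 6.81 ± 0.559 FPKM.

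Between labels no glutamate receptor or auxiliary gene passed the threshold. All 37 genes had at least 1 FPKM in at least 3 libraries and entered a limma fit of log2(FPKM + 1) over 13700 genes. At an adjusted p under 0.05, 0 of 37 were called in either direction. Over all genes 3 were called (0.0219%), 1 higher (0.0073%) and 2 lower (0.0146%). At an unadjusted p under 0.05, 4 of 37 were called, 2 higher and 2 lower. The background was 6.69% of all genes, 2.85% higher and 3.83% lower, which leaves the members' count near it. The median log2 fold change was 0.003 over the members and -0.001 over all genes, with 19 members above and 18 below 0. Of the 37 intervals at 95%, 32 stayed within 0.5 log2 units of 0 on both sides, and the widest, for Cacng5, reached 0.69. Without WT replicate 3 and APP/PS1 replicate 2, again 0 of 37 passed and 5 had an unadjusted p under 0.05 (Cacng8, Cnih3, Grin2d, Grm2 and Shisa9), beside 0.172% and 9.13% of all genes.

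**Figure D3:**
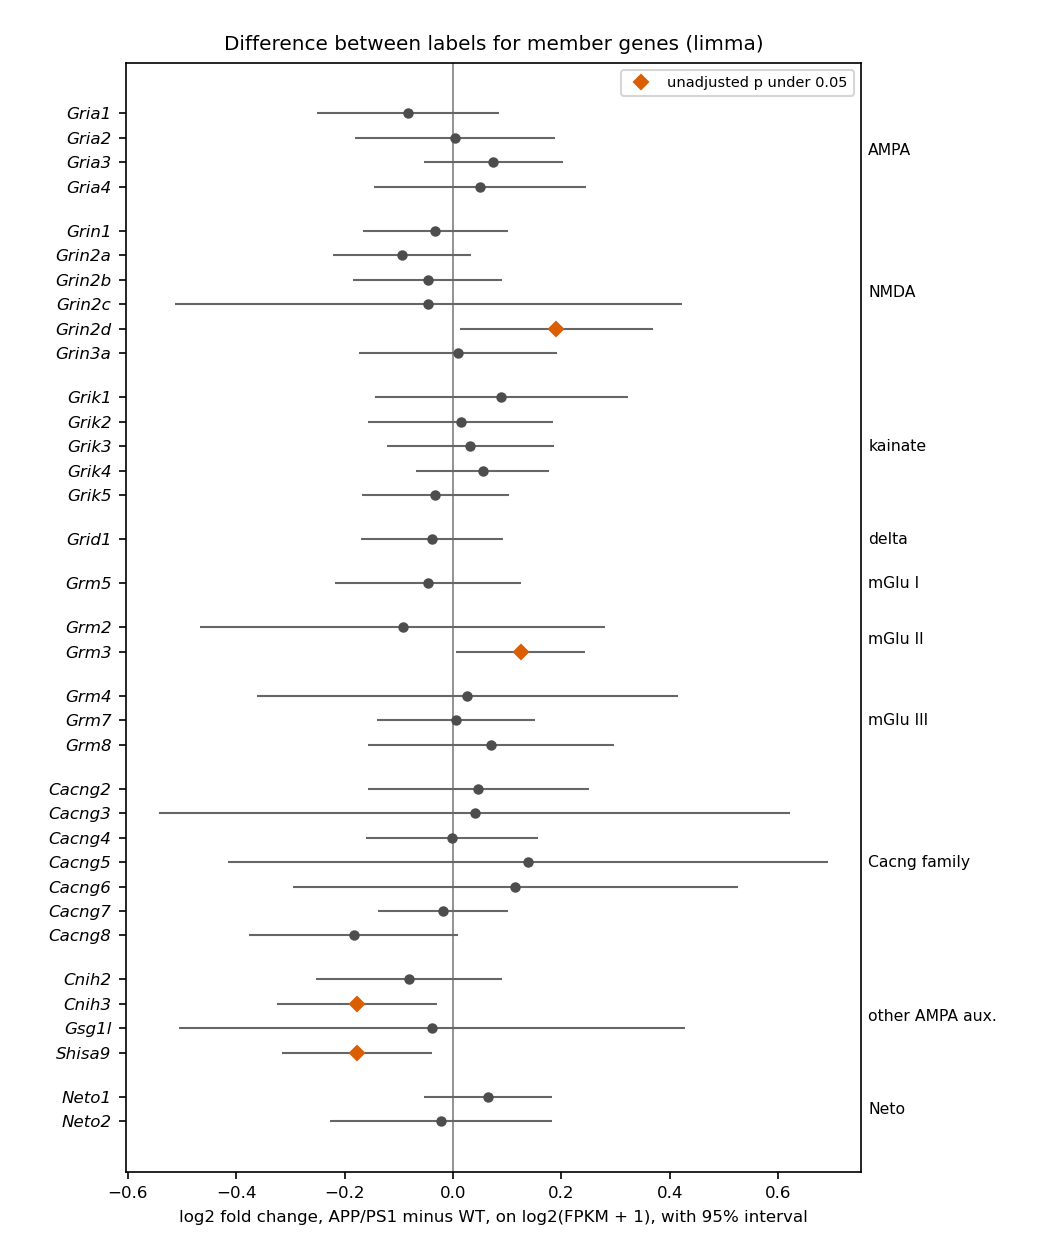
Log2 fold change of member genes on log2(FPKM + 1), APP/PS1-labelled minus WT-labelled, with its 95% interval from limma. Diamonds mark Grin2d, Grm3, Cnih3 and Shisa9, whose unadjusted p was under 0.05, and no gene passed after adjustment over all genes.

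Shisa9 was listed at 12.021, 12.6 and 13.2 FPKM under the WT label (replicates 1 to 3) and 10.6, 11.6 and 10.9 FPKM under the APP/PS1 label (log2 fold change -0.18, SE 0.0592, 95% interval -0.32 to -0.04, limma adjusted p = 0.664). Cnih3, a cornichon, had 9.27, 9.69 and 9.30 against 8.42, 8.66 and 7.61 FPKM (log2 fold change -0.18, SE 0.0632, 95% interval -0.32 to -0.03, limma adjusted p = 0.696). In both genes all 3 WT-labelled libraries lay above all 3 APP/PS1-labelled ones. Cacng8 (log2 fold change -0.18, SE 0.0821, 95% interval -0.38 to 0.01, limma adjusted p = 0.76) overlapped between labels, with 57.7 FPKM in WT replicate 1 under 59.0 FPKM in APP/PS1 replicate 2. Cnih2 (log2 fold change -0.08, limma adjusted p = 0.899) and Gria1 (log2 fold change -0.08, limma adjusted p = 0.895) overlapped as well. The 4 further AMPA auxiliary genes were all negative on the log2 scale (median -0.13), beside 6906 of all 13700 genes tested. For Gsg1l the value was -0.04, with a 95% interval of -0.50 to 0.43.

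Dentate granule neuron markers also stood higher under the WT label. Their 6 genes summed to 60.0, 64.3 and 76.6 FPKM under the WT label and to 57.2, 54.6 and 49.0 FPKM under the APP/PS1 label, without overlap. Prox1 and Lct were the 2 of the 6 whose own values did not overlap, and the sum of the other 4 was 38.4 to 51.1 against 33.1 to 37.9 FPKM. The sum of all 6 was highest in WT replicate 3 and lowest in APP/PS1 replicate 3, as were Gria1, Cnih2, Cacng8 and Grin2a. Shisa9 was instead lowest in APP/PS1 replicate 1, and Cnih3 was highest in WT replicate 2. Over all 13700 genes tested, WT replicate 3 was most often the highest library (3102 genes) and APP/PS1 replicate 3 most often the lowest (2535 genes). CA1 markers summed to 95.02 to 118.7 against 99.1 to 111.4 FPKM and CA3 markers to 37.7 to 44.2 against 42.8 to 45.6 FPKM, both overlapping. Of the CA3 markers Iyd alone did not overlap, at 1.29, 1.08 and 1.46 against 1.98, 1.87 and 2.13 FPKM, higher under the APP/PS1 label. In bulk tissue, fewer cells of a type and less RNA per cell cannot be told apart, and the part of these markers in the result was not tested.

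Higher values in the APP/PS1-labelled libraries were listed for Grm3 and Grin2d. Grm3 had 26.4, 26.3 and 24.4 against 28.6, 27.8 and 28.0 FPKM (log2 fold change 0.12, SE 0.0505, 95% interval 0.01 to 0.24, limma adjusted p = 0.74). Grin2d, an NMDA subunit of interneurons, had 2.30, 2.40 and 2.73 against 2.94, 3.06 and 2.89 FPKM (log2 fold change 0.19, SE 0.0759, 95% interval 0.01 to 0.37, limma adjusted p = 0.737). Neither gene overlapped between labels. Astrocyte markers, 6 of 6 listed, summed to 176.3 to 209.2 against 174.5 to 205.4 FPKM with overlap, and the interneuron markers, 7 of 7 listed, to 243.8 to 255.9 against 222.0 to 280.5 FPKM with overlap. The 4 oligodendrocyte precursor markers summed to 28.0 to 28.9 against 29.9 to 31.7 FPKM, without overlap. Of the 4, 3 overlapped, with sums of 16.0 to 17.2 against 15.6 to 17.9 FPKM. Sox10 did not, at 12.1, 10.8 and 11.9 against 14.3, 13.3 and 15.8 FPKM. Of 6 oligodendrocyte and myelin markers, Mog and Opalin did not overlap and were higher under the APP/PS1 label. The other 4 overlapped, as did the sum of all 6 (259.2 to 337.5 against 315.1 to 386.5 FPKM). Of 6 choroid plexus markers, Folr1, Sostdc1 and Kcne2 did not overlap and were higher under the APP/PS1 label. The choroid plexus sum overlapped (857.8 to 1202.6 against 1114.9 to 1389.0 FPKM). Among endothelial markers Ly6c1 did not overlap and was higher under the APP/PS1 label, while their sum overlapped. The part of these markers in the values of Grm3 and Grin2d was not tested. No listed marker gene was at 0 in any library.

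Grin2a was the fifth gene whose labels did not overlap, with 47.2 FPKM at the lowest among WT-labelled and 46.7 FPKM at the highest among APP/PS1-labelled libraries (log2 fold change -0.09, SE 0.0545, 95% interval -0.22 to 0.03, limma adjusted p = 0.83). These 5 of 37 genes, counted on values as deposited, compare with 11.9% of all genes tested (5.38% higher and 6.51% lower). The other genes of smallest unadjusted p were Gria3 (log2 fold change 0.07, limma adjusted p = 0.876), with 19.8, 20.7 and 21.9 against 21.5, 21.7 and 22.5 FPKM, and Neto1 (log2 fold change 0.06, limma adjusted p = 0.884), with 35.9, 36.8 and 38.8 against 38.0, 40.2 and 38.4 FPKM.

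By class, the log2 ratio of summed levels between labels ran from -0.10 for the further AMPA auxiliary genes to 0.06 for group II metabotropic receptors. The NMDA sum did not overlap, with 163.9, 165.8 and 170.9 against 159.7, 162.2 and 159.9 FPKM (log2 ratio -0.06). It stayed apart under TMM, quantile and non-mitochondrial scaling, and its ratio was -0.05 in the 4 libraries. The Cacng sum (log2 ratio -0.07), the AMPA sum (-0.04) and the sums of the other classes overlapped. Cacng8 per summed Gria genes was 0.243, 0.264 and 0.269 against 0.229, 0.2403 and 0.234, without overlap as deposited and with overlap after quantile normalisation. The other ratios examined overlapped as deposited. The Neto sum overlapped as deposited and did not after quantile normalisation (41.9 to 45.1 against 45.2 to 46.6 FPKM). Class sums and ratios are descriptions and were given no test. Among all single genes tested, 11.9% did not overlap between labels.

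The library labelled WT replicate 3 was the highest or the lowest of the 6 for 28 of the 37 genes, highest for 12 and lowest for 16. Over all genes tested this library was at an extreme for 39.5%. The other WT-labelled libraries were at an extreme for 16 and 5 members (replicates 1 and 2), beside 35.3% and 33.9% of all genes. For APP/PS1 replicates 1 to 3 the counts were 6, 4 and 15 members, beside 32.8%, 25.1% and 33.4%. Among the genes highest in WT replicate 3 were Cacng5, at 2.39, 3.23 and 5.47 against 4.26, 4.28 and 3.45 FPKM, then Cacng8, Gria2, Grm5, Gria1, Cnih2 and Grin2a. These stood between 0.17 and 0.54 log2 units above the mean of the other 5 libraries.

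On the low side of WT replicate 3, Cacng3 had 15.5, 21.8 and 12.1 against 17.5, 13.0 and 19.8 FPKM. APP/PS1 replicate 2 was next lowest and WT replicate 2 highest. Gsg1l, an AMPA auxiliary subunit of the claudin fold, had 9.02, 8.56 and 5.26 against 7.83, 6.07 and 7.87 FPKM. Grm2 had 12.2, 11.6 and 7.95 against 10.7, 8.51 and 10.019 FPKM and Grm4 4.40, 4.93 and 3.05 against 4.17, 3.45 and 4.97 FPKM. In these 4 genes, chosen after their values were seen, WT replicate 3 lay 0.36 to 0.49 log2 units below the mean of the others. Of the 16 members lowest in WT replicate 3, 8 were next lowest in APP/PS1 replicate 2, 4 in WT replicate 2, 3 in APP/PS1 replicate 1 and 1 in WT replicate 1. Of all 2308 genes lowest in WT replicate 3, 24.9% were next lowest in APP/PS1 replicate 2, and this count of members was given no test. Cacng3 and Cacng5 were among the more variable genes of the table, with a larger SD over the 6 libraries than 94.7% and 95.1% of genes tested, while Grik4 exceeded 4.61%. In WT replicate 3 the sums of the dentate markers (76.6 FPKM) and astrocyte markers (209.2 FPKM) were highest. Those of the CA1 markers (95.02 FPKM) and choroid plexus markers (857.8 FPKM, of which Ttr was 805.6 FPKM) were lowest. Of the dentate markers Prox1, Dsp and Rfx3 were highest there, while C1ql2, Lct and Tdo2 were not. Among CA1 markers Wfs1 was 21.7 FPKM there and 29.0 to 43.7 FPKM elsewhere, while Fibcd1 was highest there at 25.5 FPKM. Of the astrocyte markers Aqp4 and Gfap were highest there, while Aldh1l1, Gja1, Slc1a3 and S100b were not. The choroid plexus markers were each lowest there except Sostdc1, at 19.9 FPKM there and 17.0 FPKM in WT replicate 2. Their part was not tested.

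**Figure D4:**
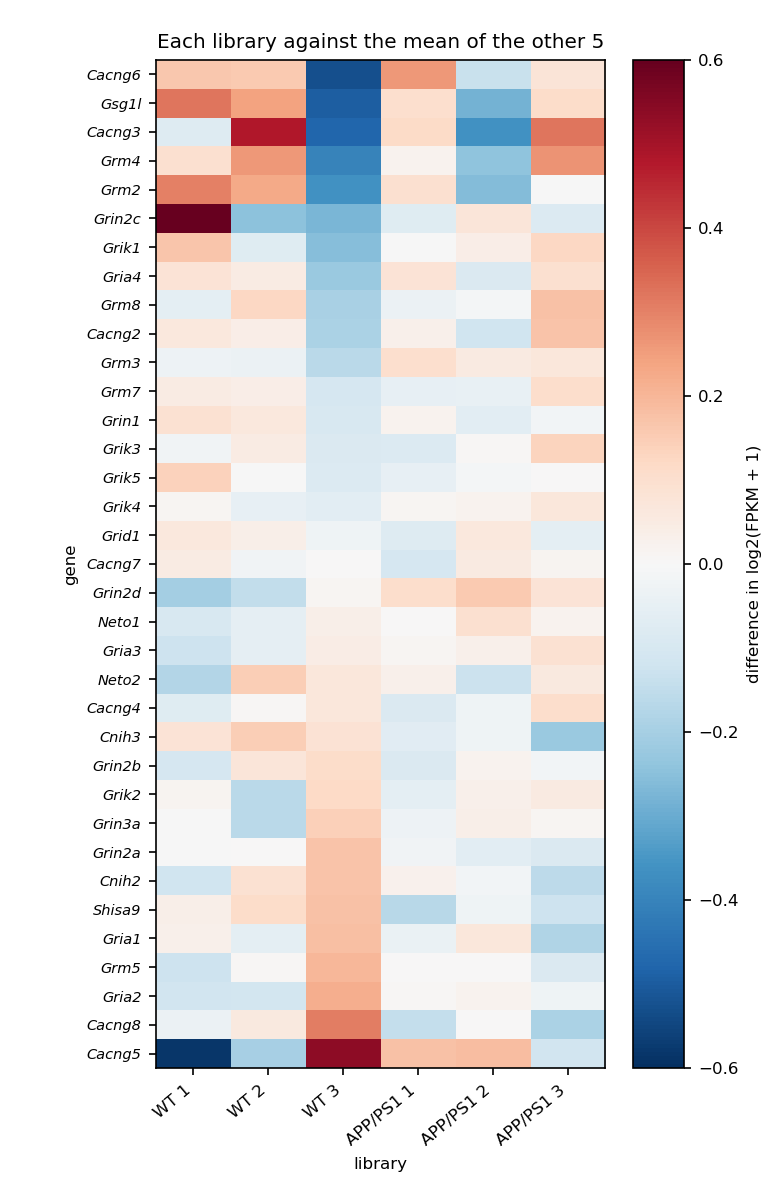
Difference in log2(FPKM + 1) between each library and the mean of the other 5, with member genes in rows ordered by WT replicate 3 and libraries in columns. Red is above and blue below the other libraries, and WT replicate 3 runs from -0.53 for Cacng6 to 0.54 for Cacng5.

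Promoter windows are shown for 3 of these genes, Gria2 and Cnih2 from those highest in WT replicate 3 and Grm2 from those lowest there. They are the 250 bases before a RefSeq transcript start on GRCm38.p6, written 5′ to 3′ on the gene's strand, with capitals for motif matches on either strand. The table held 27 windows of 22 members. Motifs searched were the GC box GGGCGG bound by Sp factors, the cyclic AMP response element TGACGTCA, the NRF-1 motif, TATAAA, and the left and right parts TTCAGCACC and GGACAGCGC of RE1, the element of the neuronal repressor REST. No match overlapped another in these 3 windows.
Gria2, chr3:80802836-80803085, strand -: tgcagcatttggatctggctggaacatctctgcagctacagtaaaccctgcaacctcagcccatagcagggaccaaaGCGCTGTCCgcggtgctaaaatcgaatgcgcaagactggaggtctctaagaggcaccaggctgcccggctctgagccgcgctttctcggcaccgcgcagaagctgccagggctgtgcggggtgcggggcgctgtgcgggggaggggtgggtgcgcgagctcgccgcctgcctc
Cnih2, chr19:5098522-5098771, strand -: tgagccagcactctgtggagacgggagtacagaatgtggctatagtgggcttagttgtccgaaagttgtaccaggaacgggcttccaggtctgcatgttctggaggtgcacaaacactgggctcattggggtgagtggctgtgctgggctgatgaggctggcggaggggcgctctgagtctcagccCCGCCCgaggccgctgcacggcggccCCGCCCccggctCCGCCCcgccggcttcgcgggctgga
Grm2, chr9:106656110-106656359, strand -: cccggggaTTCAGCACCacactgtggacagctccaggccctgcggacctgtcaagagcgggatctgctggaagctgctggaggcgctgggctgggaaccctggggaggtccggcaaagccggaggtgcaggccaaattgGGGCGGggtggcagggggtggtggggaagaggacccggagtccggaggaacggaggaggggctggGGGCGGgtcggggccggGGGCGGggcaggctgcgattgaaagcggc

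The capitals in Gria2 are the right RE1 part on the opposite strand, those in Cnih2 are 3 GC boxes on the opposite strand, and those in Grm2 are the left RE1 part and 3 GC boxes. GC boxes stood in 14 of 27 member windows (51.9%) and in 32.7% of all 32851 windows. The left and the right RE1 part were each found in 1 member window, and in 0.301% and 0.304% of all windows. Both of those member windows, of Grm2 and Gria2, are among the 3 shown. Windows of Cacng8 and Grik2, also highest in WT replicate 3, held no match of these motifs, while a Cacng5 window held 2 GC boxes. TATAAA and the cyclic AMP response element were in 0 member windows, against 12.4% and 1.55% of all. NRF-1 matches were in 2 member windows, Gria4 and Neto2, against 4.98% of all. The median GC content was 62.0% in member windows and 52.4% in all. A match describes letters and is not a site shown to be bound.

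Other genes of the glutamate synapse were counted in 7 lists with 107 tested genes. At an adjusted p under 0.05, 0 of 107 passed by limma, and 9 had an unadjusted p under 0.05, 2 higher and 7 lower (8.41% beside 6.69% of all genes). Their median log2 fold change was -0.002. Of all 13700 genes tested, 6794 were positive and 6906 negative. Of 22 postsynaptic scaffold and adaptor genes 16 were negative, with a median of -0.05, and 3 had an unadjusted p under 0.05, all of the Homer family that ties group I metabotropic receptors to the postsynaptic density. Homer3 had 6.46, 7.34 and 7.35 against 5.53, 5.08 and 4.37 FPKM (log2 fold change -0.43, SE 0.0909, 95% interval -0.64 to -0.22, limma adjusted p = 0.417), with no overlap. Homer2 had 11.3, 11.9 and 10.996 against 10.5, 10.4 and 10.1 FPKM (log2 fold change -0.13, limma adjusted p = 0.741). Homer1 had 21.2, 21.1 and 19.4 against 15.4, 16.1 and 15.6 FPKM (log2 fold change -0.37, limma adjusted p = 0.229), while its partner Grm5 had a log2 fold change of -0.05.

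Among 19 AMPA receptor assembly and interactor genes 8 were positive and 11 negative, with a median of -0.02. Shisa7, a relative of Shisa9, had 17.6, 19.4 and 20.4 against 14.5, 17.1 and 16.5 FPKM (log2 fold change -0.24, limma adjusted p = 0.665), without overlap. Prrt1, a proline-rich membrane protein that binds AMPA receptors, had 70.1, 94.0 and 85.3 against 60.6, 70.7 and 64.5 FPKM (log2 fold change -0.34, limma adjusted p = 0.664), and Nptx2, a pentraxin that clusters them, 7.54, 6.35 and 6.82 against 5.26, 5.42 and 6.65 FPKM (log2 fold change -0.22, limma adjusted p = 0.745). In all 3 genes the higher mean was that of the WT-labelled libraries. Of 8 bridging genes C1ql3, a secreted synaptic organiser, had 38.0, 39.5 and 52.7 against 33.3, 36.4 and 30.8 FPKM (log2 fold change -0.35, limma adjusted p = 0.696). It was highest in WT replicate 3, as was the sum of the dentate markers, whose part was not tested. Nrxn3, a presynaptic adhesion gene, had 22.0, 22.2 and 23.9 against 24.4, 25.0 and 24.6 FPKM (log2 fold change 0.11, limma adjusted p = 0.76), with every APP/PS1-labelled library above every WT-labelled one.

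Transport and turnover genes numbered 16 tested, 11 positive, with a median of 0.04. Slc1a6, a neuronal glutamate transporter, had 2.52, 2.36 and 2.57 against 2.87, 3.19 and 2.92 FPKM (log2 fold change 0.20, limma adjusted p = 0.696). Gls2 had 4.12, 4.88 and 2.96 against 2.87, 3.16 and 3.52 FPKM. The 6 tested co-agonist supply genes had 0 and the 20 metabotropic signalling genes 0 with an unadjusted p under 0.05. Among their members of smallest p were Shmt2, Phgdh and Slc6a9, at log2 fold changes of 0.06, 0.06 and 0.04, and Plcb4 and Rgs4, at 0.16 and -0.10. Of 16 kinase and phosphatase genes Camk2a, the kinase that phosphorylates Gria1 in potentiation, had 259.8, 263.1 and 261.2 against 228.7, 254.5 and 239.6 FPKM (log2 fold change -0.12, limma adjusted p = 0.741). Prkacb and Ptpn5 followed at 0.11 and 0.08.

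A single circular RNA with coordinates lay inside a member gene. Circular RNAs are closed transcripts made by back-splicing, and the tables listed 2246 of them as whole-number reads, 257 with coordinates and 1989 by database number alone, which are not paired with genes here. The circle at chr3:80726831-80741198 on the minus strand lies within Gria2 of the GRCm38 table, with coordinates as deposited and mm9 the build listed by the submitters. It spans 14368 bases of the genome. It had 6, 5 and 1 reads under the WT label and 3, 8 and 1 reads under the APP/PS1 label, 24 of 107803 circRNA reads in all. That is 0.0223% of circRNA reads, with an exact Clopper-Pearson 95% interval of 0.0143% to 0.0331% that covers counting error only. Between labels its log2 fold change was -0.18 (edgeR quasi-likelihood, adjusted p = 0.948), beside 0.0469% of the 2132 circRNAs tested that passed. Its 5 to 8 reads fell in the libraries where App was near 70 FPKM (WT replicates 1 and 2, APP/PS1 replicate 2) and its 1 to 3 reads in the other 3, a division seen afterwards and not tested.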

How the data were processed

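Gene values deposited by the authors were taken to be FPKM. The unit is named in no header and was inferred from the decimals, the column sums and StringTie, listed with HISAT2, FastQC and mm9 in the submitters' processing notes without versions or roles. The circRNA files hold whole-number read counts deposited by the authors, with totals of 13998 to 19584 per library, and no source used here gives the circRNA caller. Circles were placed in genes by the GRCm38 RefSeq table, where 254 of the 257 with coordinates lay inside a gene, although mm9 is listed.

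Of 15639 rows, 13700 reached 1 FPKM in 3 or more libraries and were fitted with limma 3.58.1 (trend and robust, R 4.3.3) on log2(FPKM + 1), with label as the only term, so fold changes of low genes are understated. For circRNAs that reached 2 reads in 3 or more libraries the test was edgeR 4.0.16 (quasi-likelihood, TMM), with DESeq2 1.42.0 as an alternative. Benjamini-Hochberg adjustment was over all features tested, at 0.05. Single genes of the label check used an exact permutation test (scipy 1.17.1). Scripts were tested on simulated data. Members and lists were chosen with earlier results of these data known. Values of every library are given for members past the threshold, for the 8 of smallest p, and for the highest of each class. Gria2, Grin2c, Grm2, Grm4, Cacng3, Cacng5 and Gsg1l were added after their values were seen. For the other lists the 3 genes of smallest p are named. Some members, genes of these lists and sequences, and 2 class sums, are not reported here. A fit without the 2 libraries whose App goes against their label and a scaling to non-mitochondrial FPKM were added after seeing the data.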

Additional observations from a re-analysis of the deposited data

How the results depend on the processing

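Over 16 other settings of the gene fit, the count of members past an adjusted p of 0.05 was 0 in each direction, and that of the other synapse genes was 0. Reading the member rule as any name that starts so added Grid2ip, which was under the filter, and left 0. The count of members with an unadjusted p under 0.05 was 4, and with the replicate number as a block it was 2. Without single libraries it ran from 0 to 6: 1 without WT replicate 2 or without APP/PS1 replicate 1, 0 without APP/PS1 replicate 3. Fewer libraries were then fitted. The median log2 fold change of the members, 0.003, was -0.027 with a filter of 5 FPKM, which tests 30 members, and -0.022 with array weights, and ran from -0.023 to 0.020 without single libraries. Same-numbered libraries did not deviate together (correlations of 0.01, -0.06 and -0.09), so the numbers are not taken to pair them. The sign of Grm7 (0.01) changed to -0.022 with array weights and -0.013 in the 4 libraries, with a range of -0.037 to 0.028 over single libraries left out. That of Grm5 changed to 0.012 in the 4 libraries (range -0.110 to 0.025, the highest without WT replicate 3), and that of Grik5 without WT replicate 1 (range -0.074 to 0.017). The Gria2 circle ranged from -1.19 to 0.36, with 0.36 lacking WT replicate 1 and 0.27 lacking APP/PS1 replicate 3, and was -1.68 in the 4 libraries. The cause was not tested. The other synapse genes with an unadjusted p under 0.05 numbered 9, and 14 with array weights, 5 with the replicate block and 5 to 14 over single libraries left out. Quantile normalisation changed whether labels overlapped for the Neto sum and for Cacng8 per summed Gria genes. Among members, Gria3 (19.6 to 21.5 against 21.6 to 23.1 FPKM) and Neto1 (35.9 to 38.1 against 38.2 to 40.4 FPKM) no longer overlapped after it. Under non-mitochondrial scaling Grik4 no longer overlapped (8.528 to 8.957 against 8.963 to 9.439 FPKM).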
